A study of Mus musculus with 21 samples.

Results

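Muscle ubiquitin ligases and the adaptors that hand them their substrates were followed through myogenesis and through depletion of 4 nuclear envelope transmembrane proteins (NETs). The 7 genes are Fbxo32, Trim63, Trim54, Trim55, Asb2, Asb5 and Klhl41 (formerly Kbtbd10), taken by name with every probe annotated to them among 45281 probes. Of these genes 6 had a probe, 8 probes in all, and 5 genes had a probe above background in at least 3 arrays, among 13572 genes that did so. Trim55 had no probe in the annotation used and was not analysed here. The single Asb5 probe lay above background on 1 of 21 arrays, so Asb5 is described but was not tested.

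RNA came from C2C12 cells, an established mouse myoblast line, in 7 groups of 3 cultures, each on a single-colour Illumina bead array. Untransduced myoblasts (MBs) were taken on day 0, and all other groups were myotubes (MTs) on day 6 after the switch to medium with 2% horse serum, with 1 µM tetrodotoxin added to stop contraction and MTs enriched by brief trypsin treatment. The MT groups were untransduced, or stable puromycin-selected lines carrying lentiviral control shRNA or shRNA against NET39 (gene Plpp7), TMEM38A, WFS1 or TMEM214. Each knockdown is a single transduced line here, so the knockdown and the line cannot be told apart, and p-values measure the spread between 3 cultures of a line. The labels name the control as a non-target shRNA and other wording of the study as an empty vector, which is not settled.

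A ubiquitin ligase marks chosen proteins with ubiquitin, after which many are degraded by the proteasome. Some ligases are single proteins with a RING domain, as are the muscle RING finger proteins Trim63 (MuRF1), Trim54 (MuRF3) and Trim55 (MuRF2), which bind the sarcomere. Others are assembled on a cullin scaffold and take their substrates through an adaptor: an F-box protein such as Fbxo32 (atrogin-1) on cullin 1, a BTB-Kelch protein such as Klhl41 on cullin 3, or an ankyrin repeat and SOCS box (ASB) protein such as Asb2 and Asb5 on cullin 5. Fbxo32 and Trim63 are known for their rise in wasting muscle, where FoxO transcription factors drive them. Asb2 is known to direct filamins to degradation in differentiating muscle cells, and Klhl41 to stabilise nebulin and the thin filament.

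Levels below are log2 intensities after background correction and quantile normalization, and a gene was called when its adjusted p in the limma model of all 21 arrays was below 0.05 and its log2 ratio exceeded 0.5 in size. Levels of different probes are not comparable. The 15 shRNA arrays were brighter (mean intensity 301 to 533) than the 6 untransduced ones (172 to 289), so array brightness and transduction cannot be told apart. The first MB array stood apart from its replicates, with 691 genes over 1 log2 unit from the mean of the other 2. The same count was 59 and 148 for the others. The targeted gene was lower in its own line: Plpp7 by a log2 ratio of −1.86, Tmem38a by −4.55, Wfs1 by −4.28 and Tmem214 by −1.21. Plpp7 was also lower in the TMEM214 line (−1.19) and Wfs1 in the TMEM38A line (−0.73).

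The regions upstream of the 4 members that rose in myogenesis are shown because E-boxes, the CANNTG sites of MyoD and myogenin, are the best known element of muscle promoters. They are the 250 bases before the RefSeq start in GRCm38.p6: Klhl41 at chr2:69669870-69670119 on the plus strand, Trim63 at chr4:134314870-134315119 on the plus strand, Trim54 at chr5:31116362-31116611 on the plus strand, and the upstream start of Asb2 at chr12:103356002-103356251 on the minus strand. Capitals mark CANNTG and, in Trim63, a match to the FoxO motif GTAAACA on the reverse strand.
Klhl41: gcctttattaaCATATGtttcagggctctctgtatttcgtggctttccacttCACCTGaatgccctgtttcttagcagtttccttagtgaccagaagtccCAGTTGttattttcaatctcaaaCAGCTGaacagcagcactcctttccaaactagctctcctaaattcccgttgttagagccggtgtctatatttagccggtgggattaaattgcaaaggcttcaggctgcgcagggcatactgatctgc
Trim63: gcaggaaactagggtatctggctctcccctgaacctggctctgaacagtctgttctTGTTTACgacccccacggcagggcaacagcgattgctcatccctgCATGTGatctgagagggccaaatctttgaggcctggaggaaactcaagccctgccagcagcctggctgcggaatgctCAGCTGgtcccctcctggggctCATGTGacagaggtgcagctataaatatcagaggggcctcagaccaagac
Trim54: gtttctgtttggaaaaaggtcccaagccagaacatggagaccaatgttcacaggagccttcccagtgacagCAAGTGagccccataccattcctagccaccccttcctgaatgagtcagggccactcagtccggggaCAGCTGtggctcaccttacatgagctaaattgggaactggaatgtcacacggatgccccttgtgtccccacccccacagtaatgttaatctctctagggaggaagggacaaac
Asb2: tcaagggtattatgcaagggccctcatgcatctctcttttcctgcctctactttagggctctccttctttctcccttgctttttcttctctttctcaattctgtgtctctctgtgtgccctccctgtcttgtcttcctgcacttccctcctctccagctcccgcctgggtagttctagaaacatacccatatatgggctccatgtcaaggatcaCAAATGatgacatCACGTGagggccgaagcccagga

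Klhl41 held 4 E-boxes, Trim63 3, and Trim54 and the upstream Asb2 start 2 each, while the other Asb2 start held none. At least 1 E-box was present in 66.2% of 32851 mouse promoter windows of this length, and 3 or more in 12.2%. The E-box form CAGCTG, which is 1 of the sites counted as CANNTG, was found once each in Klhl41, Trim63 and Trim54 and in 13.0% of all windows. The FoxO motif lay 194 bases before the Trim63 start and was found in 3.17% of windows. A CArG box was found at the upstream Asb2 start (1.47% of windows) and a MEF2 motif in Klhl41 (2.92%). Asb5, above background on 1 of 21 arrays, also held a CArG box, a MEF2 motif and E-boxes among its start sites. Both strands were searched, and these matches describe letters only.

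The first question was how the ligase genes behaved when MBs became MTs. Klhl41, Trim54, Asb2 and Trim63 rose, while Fbxo32 did not pass the test. Klhl41 measured 6.40, 6.27 and 6.34 in the 3 MB arrays and 12.39, 12.14 and 12.05 in the untransduced MTs. The groups were far apart, at a log2 ratio of 5.86 ± 0.10 (SE, n = 3 per group) or 58.0-fold (adjusted p = 2.94e-19).

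Asb2 measured 5.91, 6.00 and 6.04 in MBs, none of them above background, and 8.87, 9.25 and 9.50 in MTs, which is at least 8.86-fold higher (adjusted p = 3.46e-13). "At least" bounds set each MB array at the lowest signal found above its background, or at the probe's own if higher. Trim63 measured 5.97, 5.91 and 5.99 in MBs, again not above background, and 8.63, 8.82 and 8.38 in MTs, at least 5.84-fold higher (adjusted p = 9.81e-11). Both genes were thus measured above background in MTs and not in MBs.

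Trim54, whose product joins microtubules and the sarcomere, was above background on every MB array at 6.34, 7.16 and 7.09, and reached 9.75, 10.60 and 10.73 in MTs. The lowest MB value was from the array that stood apart, and the lowest MT value also came from a first replicate. The ratio was 3.49 ± 0.22, or 11.3-fold (adjusted p = 8.24e-11), and the groups did not overlap.

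Fbxo32, in contrast, was already well above background in MBs, at 7.99, 8.17 and 7.91 on its brightest probe, and measured 8.28, 8.14 and 8.09 in MTs. The groups overlapped, with a ratio of 0.15 (95% interval −0.05 to 0.34, adjusted p = 0.222). In the control shRNA MTs, at 7.40, 7.18 and 7.13, Fbxo32 was called lower than in the untransduced MBs (−0.79 ± 0.09, adjusted p = 5.25e-07). Differentiation, transduction and array brightness cannot be told apart in that contrast. With the control line as end point the other 4 genes were still called higher, Klhl41 by 96.0-fold, Trim54 by 15.0-fold, Asb2 by at least 6.57-fold and Trim63 by at least 2.49-fold.

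Of the 5 genes tested 4 were called higher in untransduced MTs and 0 lower, where 15.0% of all 13572 genes were called higher and 16.8% lower. Asb2 and Trim63 passed the background filter only through MT arrays, so a difference was bound to be seen for them and the count is a description. Asb5, an ASB protein of skeletal muscle, stayed between 5.74 and 6.06 over all 21 arrays.

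**Figure D1:**
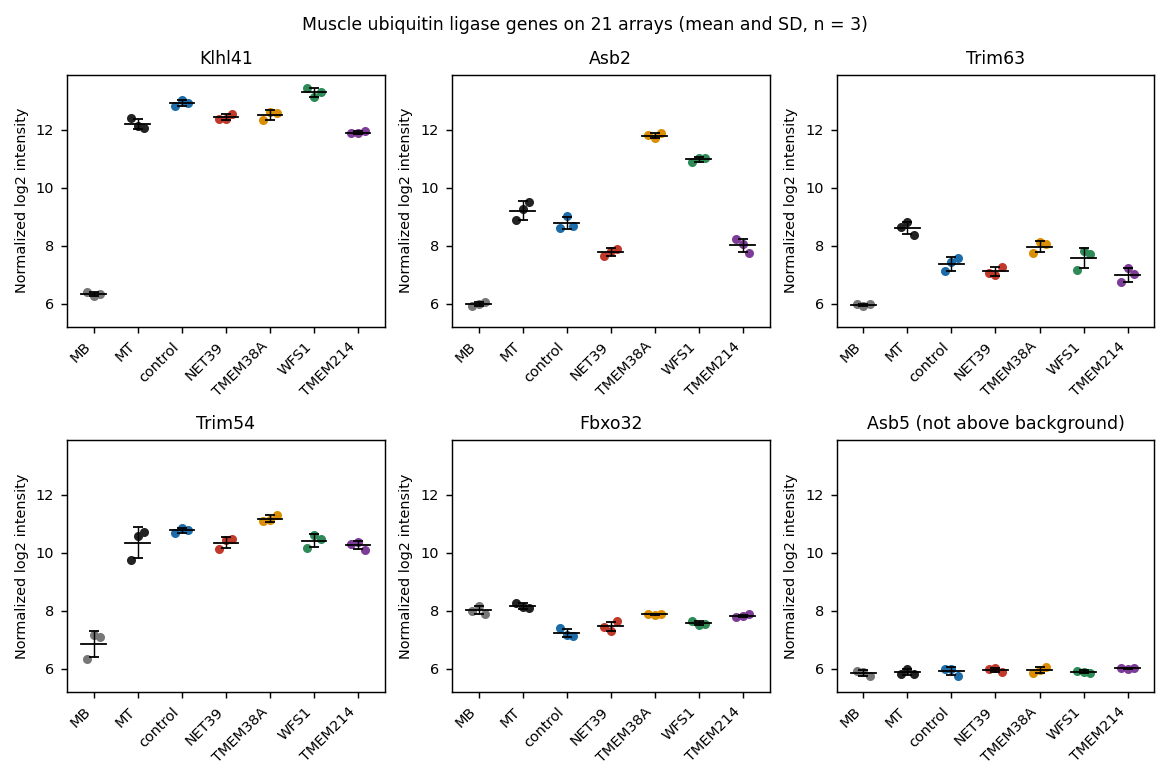
Normalized log2 intensity of 6 genes (panels) in the 7 groups (x axis: MB and MT untransduced, the other 5 being shRNA lines at day 6), with points for 3 arrays, a line for the mean and bars for the SD. Klhl41, Asb2, Trim63 and Trim54 sit higher in every MT group than in MBs, Asb2 is above control in the TMEM38A and WFS1 lines and below it in the NET39 and TMEM214 lines, and Asb5 stays between 5.74 and 6.06.

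Fbxo32 was the only member with several probes, and they did not all behave alike. ILMN_2873444 and ILMN_2715893 rose and fell together over the 21 arrays (r = 0.93), whereas ILMN_2752994 followed them loosely (r = 0.20 and 0.22). ILMN_2752994 read 6.72, 6.06 and 6.34 in MBs and 7.47, 6.75 and 6.60 in untransduced MTs. In myogenesis it was called higher (0.56 ± 0.19, adjusted p = 0.0226) although its groups overlapped, while ILMN_2715893 was not (0.17, adjusted p = 0.194). These adjusted p-values are over all probes kept. Which transcripts each probe reads was not tested.

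**Figure D2:**
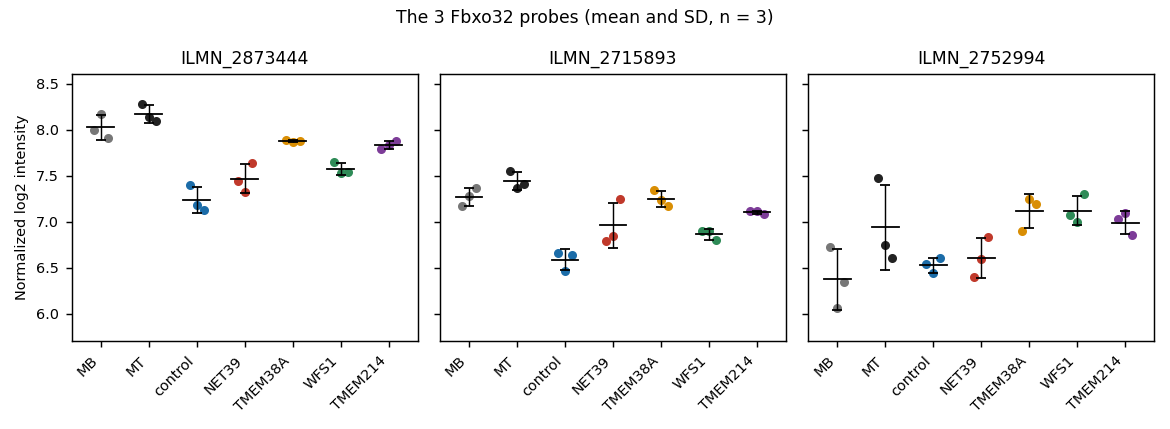
Normalized log2 intensity of the 3 Fbxo32 probes (panels) in the 7 groups, with points for 3 arrays, a line for the mean and bars for the SD. ILMN_2873444 and ILMN_2715893 are lowest in the control shRNA line (7.13 to 7.40 on the former), and ILMN_2752994 has its lowest mean in MBs (6.37).

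The comparison of control shRNA MTs with untransduced MTs asked what differed in the transduced and selected control line, whose arrays were also brighter. Fbxo32 and Trim63, the atrophy-related pair, were lower in the control line and Klhl41 was higher. Fbxo32 ran from 7.13 to 7.40 against 8.09 to 8.28 (−0.93 ± 0.09, adjusted p = 1.50e-06), and ILMN_2715893 gave −0.86. Trim63 measured 7.11, 7.44 and 7.58 against 8.38 to 8.82 in untransduced MTs (−1.23 ± 0.17, adjusted p = 3.42e-05). Klhl41 reached 12.83, 13.02 and 12.91 (0.73 ± 0.10, adjusted p = 4.19e-05).

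For Asb2 the control line gave 8.62, 9.03 and 8.69 (−0.43 ± 0.14, adjusted p = 0.0325, short of the size threshold but past it without the first untransduced MT array, at −0.60, or control array 2, at −0.55), and for Trim54 10.70, 10.85 and 10.79 (0.42 ± 0.22, adjusted p = 0.187). Thus 1 of 5 genes was called higher and 2 lower, against 6.28% and 5.76% of all genes. These calls depended on the scaling. When arrays were brought to a common median without quantile normalization the median of all genes itself moved to 0.50, Fbxo32 turned to 0.09 and Trim63 shrank to −0.14, neither called, while Asb2 (0.87), Trim54 (1.85) and Klhl41 (2.03) were called higher.

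The 4 knockdown lines were each compared with the same 3 control shRNA arrays, to see which ligase genes changed when a NET was depleted. Asb2 changed in all 4, upward in the TMEM38A and WFS1 lines and downward in the NET39 and TMEM214 lines. Because the control arrays are shared, the 4 comparisons are not independent of each other. All MT groups were enriched by trypsin treatment, a step meant to leave unfused cells behind, but in bulk RNA fewer MTs and less of a transcript per MT cannot be told apart.

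Asb2 measured 11.80, 11.70 and 11.87 in the TMEM38A line against 8.62, 9.03 and 8.69 in the control line. Every TMEM38A array was far above every control array. The ratio of 3.01 ± 0.14 is 8.07-fold (adjusted p = 1.90e-11), which ranked 3 from the top among the 13572 genes.

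In the WFS1 line Asb2 measured 10.89, 11.01 and 11.03, also without overlap (2.20 ± 0.14, 4.59-fold, adjusted p = 2.13e-09), rank 19 from the top. The NET39 line gave 7.64, 7.81 and 7.89, below all control arrays (−1.00 ± 0.14, adjusted p = 5.16e-05). The TMEM214 line gave 8.22, 8.05 and 7.76, lower as well (−0.77 ± 0.14, adjusted p = 0.000684). These 4 calls held in each of the 16 alternatives run, between 2.72 and 3.14 for TMEM38A, 1.80 and 2.32 for WFS1, −1.13 and −0.83 for NET39, and −0.87 and −0.64 for TMEM214.

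Ordered by level, Asb2 ran from the TMEM38A line through the WFS1 line, untransduced MTs, control MTs, the TMEM214 line and the NET39 line to MBs. Neighbours in that order differed at the threshold except untransduced and control MTs (0.43) and the TMEM214 and NET39 lines (0.23, adjusted p = 0.403). The lowest MT group minus the highest, NET39 minus TMEM38A, was −4.01, or 16.1-fold.

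The summed signal of MT markers lay on the same side of control as Asb2 in all 4 lines, although the single markers did not all do so. The summed intensity of 4 of 5 listed markers (Tnnt3, Mb, Actn2 and Ckm; Myh3 was not analysed here) was 31039 to 32033 in the control line, 49098 to 51496 in the TMEM38A line, 35184 to 36614 in the WFS1 line, 22996 to 26780 in the NET39 line and 15278 to 16619 in the TMEM214 line. Actn2, alpha-actinin of the Z-disc, had log2 ratios of 1.23, 1.13, −0.82 and −1.19 in the TMEM38A, WFS1, NET39 and TMEM214 lines, all called. In the same order Ckm gave 0.83, 0.14, −0.64 and −0.83, Mb (myoglobin) 0.97, −0.11, −0.04 and −1.71, and Tnnt3 (troponin T) −0.12, −0.19, −0.33 and −0.61. In the WFS1 line Actn2 was thus the 1 marker of 4 called, against 3 in TMEM38A, 2 in NET39 and 4 in TMEM214.

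Dividing-cell markers (Top2a, Cdk1, Mcm5) were summed to 282 to 321 in control, 299 to 313 in TMEM38A, 268 to 306 in WFS1, 792 to 825 in NET39 and 503 to 536 in TMEM214 arrays. All 3 were called higher in both of the last 2 lines, as were 3 of 5 undifferentiated MB markers in each (5.22% and 5.41% of all genes). The latter included Vcam1 (2.55) and Id3 (1.53) in NET39, and Vcam1 (1.88) and Notch1 (0.65) in TMEM214. Notch1 did not fall in myogenesis (0.48, not called, but 0.63 and called higher without the first MB array). In the TMEM38A line Notch1 was called higher (0.60) and Id1 lower (−1.25), and in the WFS1 line Vcam1 was higher (0.82). Fibroblast markers (5 of 6 listed) were summed to 484 to 540 in control, 357 to 415 in TMEM38A, 549 to 589 in WFS1, 778 to 813 in NET39 and 767 to 889 in TMEM214 arrays, with Pdgfrb and Col1a1 called lower in the TMEM38A line and higher in the NET39 and TMEM214 lines. Only 3 of these 5 markers were above background on any array of a group, except in NET39 (5), so the sums hold background signal. Col1a1 was itself called higher in myogenesis (0.56). Untransduced MTs had more MT marker signal (37015 to 42062) than the WFS1 line and less Asb2, a contrast that also spans transduction and array brightness. The part of these marker differences in the Asb2 result was not tested.

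**Figure D3:**
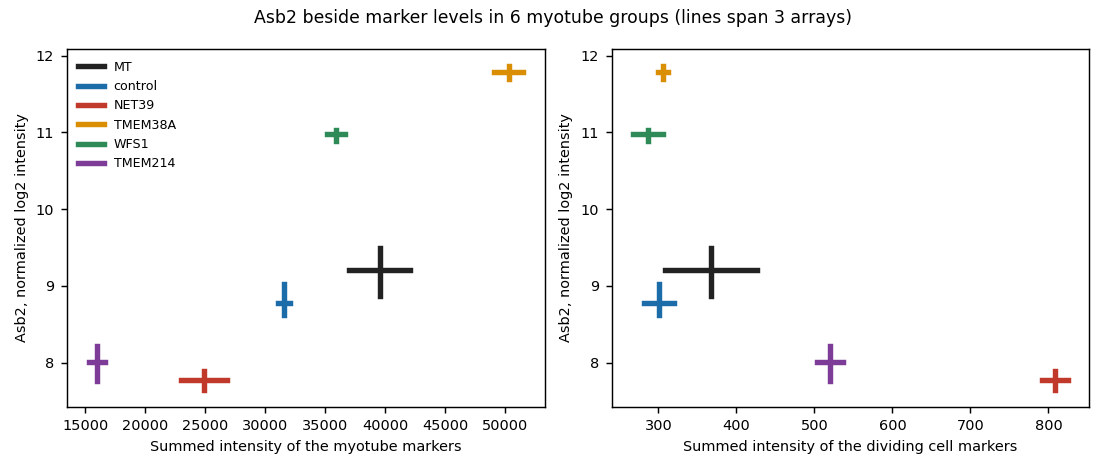
Asb2 level (y axis, normalized log2 intensity) against the summed intensity of MT markers (left) or dividing-cell markers (right) in the 6 MT groups, each cross spanning the lowest to highest of 3 arrays. The TMEM38A line is highest in Asb2 and in MT markers, and the NET39 line lowest in Asb2 and highest in dividing-cell markers (792 to 825).

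Klhl41 was called in 1 line. It was lower in the TMEM214 line, at 11.88, 11.88 and 11.95 against 12.83 to 13.02 in control MTs (−1.02 ± 0.10, 2.03-fold, adjusted p = 1.06e-06). In the NET39 line it measured 12.38, 12.36 and 12.54, all below control, and its ratio of −0.49 (adjusted p = 0.00174) fell just short of the size threshold. It passed that threshold without the first control array (−0.54) or without NET39 array 3 (−0.55).

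The TMEM38A line had Klhl41 at 12.32, 12.62 and 12.58 (−0.42, adjusted p = 0.00591, but −0.63 and called under median scaling). The WFS1 line held the highest values of any group, 13.42, 13.13 and 13.30 (0.36, adjusted p = 0.0170). Neither was called, though neither overlapped the control arrays. In the TMEM38A line Asb2 was called higher while the Klhl41 value was below control.

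Fbxo32 was higher in 2 lines. The TMEM38A arrays gave 7.89, 7.87 and 7.88 against 7.13 to 7.40 (0.64 ± 0.09, adjusted p = 4.43e-05), and the TMEM214 arrays 7.79, 7.83 and 7.88 (0.59 ± 0.09, adjusted p = 0.000137). All of these lay above every control array and below every untransduced MT array. The authors' own normalized values put both ratios under the size threshold, at 0.49 and 0.45, and median scaling gave 0.30 in the TMEM38A line, not called.

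In the WFS1 line Fbxo32 measured 7.65, 7.53 and 7.54 (0.33, adjusted p = 0.0162) and in the NET39 line 7.44, 7.32 and 7.64 (0.23, adjusted p = 0.103), neither called. Probe ILMN_2715893 was called in the same lines as the brightest probe (0.66 and 0.51). ILMN_2752994 was called in the TMEM38A line (0.58, adjusted p = 0.0447) and the WFS1 line (0.59, adjusted p = 0.0423) but not in the TMEM214 line (0.46, adjusted p = 0.125).

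Trim63 was called in 1 line, TMEM38A, at 7.75, 8.12 and 8.04 against 7.11, 7.44 and 7.58 (0.59 ± 0.17, adjusted p = 0.0170). The call was lost with the authors' values (0.45), under median scaling (0.27), without control array 1 (0.46, adjusted p = 0.108) and without TMEM38A array 2 (0.51, adjusted p = 0.0837) or 3 (0.56, adjusted p = 0.0646). Its values were 7.17, 7.82 and 7.72 in the WFS1 line (0.19), 7.05, 7.00 and 7.28 in the NET39 line (−0.27) and 6.75, 7.22 and 7.03 in the TMEM214 line (−0.38). All 3 of these groups overlapped the control, with adjusted p-values of 0.509, 0.334 and 0.141.

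Trim54 was called in no knockdown. Its levels were 11.11, 11.12 and 11.32 in the TMEM38A line (0.41, 95% interval −0.05 to 0.86), 10.17, 10.61 and 10.49 in the WFS1 line (−0.35, −0.81 to 0.11), 10.14, 10.44 and 10.49 in the NET39 line (−0.42, −0.88 to 0.03) and 10.32, 10.39 and 10.11 in the TMEM214 line (−0.51, −0.96 to −0.05). The control arrays, at 10.70 to 10.85, were overlapped by none of the 4 lines. The SE of 0.22, from a model that includes the scattered untransduced arrays, was the largest of the 5 genes. Fitted on the TMEM214 and control arrays alone, the same difference of −0.51 was called (adjusted p = 0.000879), and under median scaling that of the WFS1 line was (−0.83).

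In counts, 3 of the 5 genes were called higher and 0 lower in the TMEM38A line (4.27% and 5.91% of all genes), 1 and 0 in the WFS1 line (4.30% and 4.33%), 0 and 1 in the NET39 line (5.22% and 4.60%), and 1 and 2 in the TMEM214 line (5.41% and 4.40%).

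**Figure D4:**
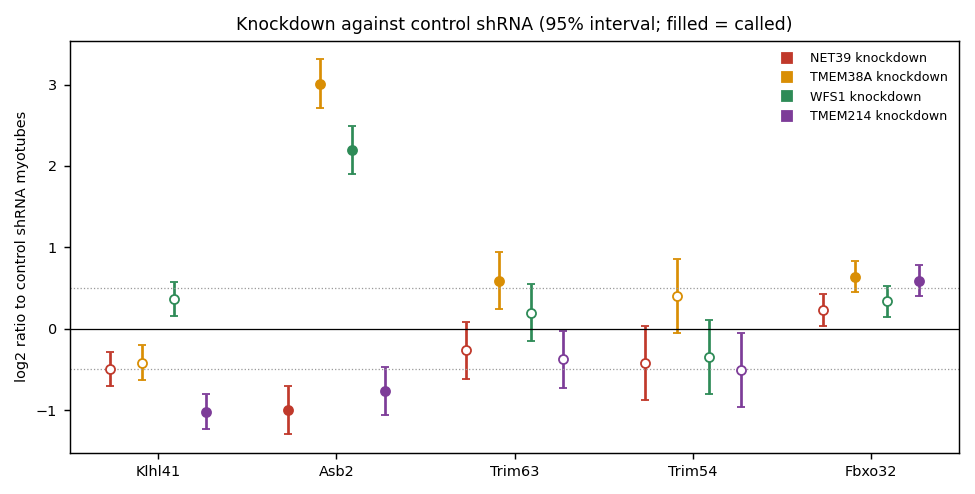
Log2 ratio of each knockdown line to the control shRNA MTs (y axis) for the 5 genes above background, with 95% intervals from the limma model. Filled points were called, and the dotted lines mark the size threshold of 0.5. Asb2 spans 3.01 in the TMEM38A line to −1.00 in the NET39 line.

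The lines were also compared with each other in 6 pairs, whose adjusted p-values are over all genes. NET39 against TMEM38A had 3 of 5 genes called, all lower in NET39, where 17.5% of all genes were called: Asb2 (−4.01), Trim63 (−0.86) and Trim54 (−0.83). NET39 against WFS1 had 2 called (12.4% of genes), Asb2 (−3.20) and Klhl41 (−0.86). The NET39 and TMEM214 lines differed in Klhl41 alone (0.53, background 5.40%), and their Asb2 difference of −0.23 had a 95% interval of −0.53 to 0.06.

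The TMEM38A and WFS1 lines, which both had raised Asb2, differed in 3 genes (12.9% of genes): Asb2 (0.81) and Trim54 (0.76) were higher in the TMEM38A line and Klhl41 (−0.78) lower. TMEM38A against TMEM214 had 4 called, all higher in TMEM38A (15.8% of genes), Asb2 by 13.7-fold, Trim63, Trim54 and Klhl41. WFS1 against TMEM214 had 3 called, all higher in WFS1 (10.5%): Asb2 by 7.81-fold, Klhl41 by 2.61-fold and Trim63 by 1.49-fold, the last with overlapping groups. Fbxo32 was called in none of the 6 pairs. Median scaling lost the calls of Trim63 (−0.41) and Trim54 (−0.45) in NET39 against TMEM38A, of Klhl41 in both pairs of TMEM214 with NET39 (0.50) and TMEM38A (0.33), and of Trim63 in WFS1 against TMEM214 (0.19), and added Fbxo32 in the last (−0.68). Left-out arrays lost Klhl41 in NET39 against TMEM214 (0.47 without NET39 array 3), Trim54 in TMEM38A against WFS1 (0.69 without TMEM38A array 3, 0.63 without WFS1 array 1) and Trim63 in WFS1 against TMEM214 (0.45 without TMEM214 array 1 or WFS1 array 2, 0.50 without WFS1 array 3), a call that the authors' values also lost (0.42).

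Over the 18 MT arrays the 5 genes did not share 1 pattern. Correlations ran from −0.54 (Fbxo32 with Klhl41) to 0.61 (Fbxo32 with Trim63), with 0.60 for Trim54 and Asb2. They rest on 6 groups whose arrays share a line, and are given as a description. The genes most like Asb2 were Mgst3, a microsomal glutathione transferase (r = 0.97), Fabp3, a fatty acid carrier of slow and cardiac muscle (0.97), Ecsit, a mitochondrial complex I assembly factor (0.96), Kbtbd13, another BTB-Kelch adaptor (0.96), and Tgm2, a transglutaminase (0.95). Fabp3 had log2 ratios of 1.58, 1.51, −0.77 and −0.27 in the TMEM38A, WFS1, NET39 and TMEM214 lines.

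Nearest to Klhl41 were Dcaf4, a substrate receptor of cullin 4 ligases (r = 0.94), Etl4, Wipf3, Klhdc1 and Hspb7, a small heat shock protein of muscle (0.92). For Trim63 they were Ube2e1, a ubiquitin-conjugating enzyme (0.94), Zfp91, Sumo3, Orai1 and Rxrb. Trim54 was most like Nfatc3, a calcineurin-responsive transcription factor (0.92), Tef, Inafm2, Vcp, the segregase that extracts ubiquitinated proteins (0.90), and Tmem229b. Fbxo32 was most like Ctrb1 (0.91), Gstp1, Cox6a1, the autophagy receptor Sqstm1 (0.87) and Hilpda.

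Related adaptors and ligases were read from lists of the pathway, whose counts stand beside the 15.0% of all genes called higher and 16.8% called lower in myogenesis. Genes given as "at least" were above background on no MB array, so they passed the filter only through MT arrays and a difference was bound to be seen for them. Among 6 other muscle Kelch genes above background 4 were called higher in myogenesis and 0 lower. They were Klhl40, a nebulin and leiomodin partner (at least 20.5-fold), Klhl31 (at least 5.61-fold), Klhl30 (4.36-fold) and Kbtbd13 (at least 1.26-fold). Of 11 other ASB genes 5 were called higher, with Asb16 (4.85-fold, above background on 2 of 3 MB arrays), Asb14 (2.51-fold, 1 of 3), Asb8 and Asb1 leading. Of 15 other ligases 4 were higher and 1 lower. Trim72 (MG53), the membrane repair protein, rose 41.8-fold against MBs in which 1 of 3 arrays was above background, Fbxo31 2.86-fold and Fbxo40, a muscle F-box protein that targets Irs1, at least 2.18-fold, while Fbxo21 fell by 0.75 on the log2 scale.

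In the knockdowns some relatives were called on the same side of control as Asb2 and others were not. Kbtbd13 was higher in the TMEM38A (1.24) and WFS1 (0.52) lines. Klhl31 was higher in the TMEM38A line (0.55) and lower in the NET39 (−0.82) and TMEM214 (−0.70) lines. Asb16 was lower in the NET39 (−0.64) and TMEM214 (−0.92) lines. In the NET39 line Klhl40 was lower (−0.60) and Klhl30 higher (0.50, just over the size threshold, adjusted p = 0.0081). Asb14 was lower in the NET39 (−1.07), TMEM214 (−1.18) and WFS1 (−0.71) lines, and Asb1 lower in the TMEM38A (−1.29) and WFS1 (−0.52) lines. Asb11 was higher in the WFS1 line (1.17), against a dim control (mean 6.16) above background on 2 of 3 arrays. Fbxo40 was lower in the NET39 (−1.09) and TMEM214 (−0.57) lines, and Fbxo31 lower in NET39 (−0.69) and higher in TMEM38A (0.59). Nedd4 was higher in the TMEM38A line (0.65), Neurl2 (0.96) and Trim72 (0.68) higher in the WFS1 line, and Traf6 lower in the TMEM214 line (−0.62). Of the 11 other ASB genes, 0 were called higher and 1 lower in the TMEM38A line (4.27% and 5.91% of all genes), 1 and 2 in the WFS1 line (4.30% and 4.33%), 0 and 2 in the NET39 line (5.22% and 4.60%) and 0 and 2 in the TMEM214 line (5.41% and 4.40%). In the same order of lines, the 6 Kelch genes had 2 higher and 0 lower, 1 and 0, 1 and 2, and 0 and 1. The 15 other ligases had 2 and 0, 2 and 0, 0 and 2, and 0 and 3.

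**Figure D5:**
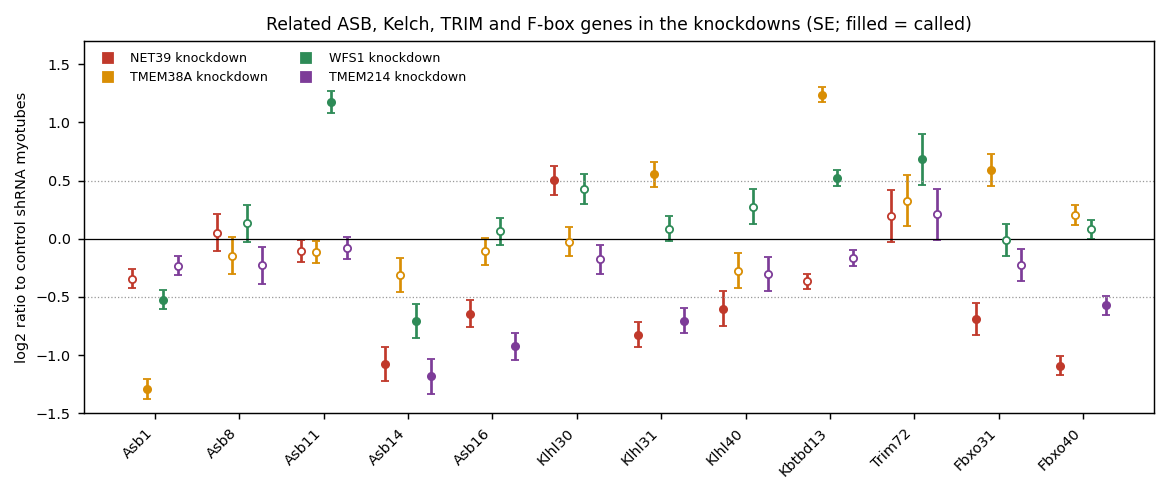
Log2 ratio to control shRNA MTs (y axis) of 12 related genes in the 4 knockdown lines, with bars for the SE and filled points for called genes. Kbtbd13 is highest in the TMEM38A line (1.24), and Asb14 is lowest in the TMEM214 line (−1.18).

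Of the machinery they share, Skp1, Cul1 and 9 proteasome genes were called higher in myogenesis, and only Cul5 and Psmc6 were called in knockdowns. In each knockdown line 4.27% to 5.91% of all genes were called in each direction, so the knockdown counts are given as a description. Of 7 cullin-RING core genes 2 were called higher in myogenesis, Skp1 (2.84-fold), the F-box partner, and the cullin 1 gene Cul1 (2.26-fold), and 0 lower. Over the 4 knockdowns 1 of the 7 was called, Cul5, the scaffold used by ASB proteins, lower in the WFS1 line (−0.55, 4.33% of all genes lower). Of 7 genes of the Nedd8 cycle, which switches cullins on and off, Cops5 was higher (1.63-fold) and Cand1 lower (−1.13) in myogenesis and 0 were called in any knockdown. Of 28 proteasome subunit genes 9 were higher and 1 lower in myogenesis (15.0% and 16.8% of all genes), among them Psmd14, the deubiquitinase of the lid, at 3.02-fold (SD of 1.29 in MBs on the log2 scale), and Psmc6 was the 1 called in a knockdown, higher in the NET39 (0.85) and WFS1 (0.94) lines.

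Known substrates and partners were mostly MT genes: 9 of 12 were higher and 1, Flna, lower in myogenesis. Ckm (creatine kinase), Lmod3 (leiomodin, a Klhl40 partner), Ttn (titin, which binds the MuRF proteins) and Mybpc1 rose most, Ckm by at least 42.0-fold and Ttn by 31.3-fold. Flna, the filamin A gene, was higher in the NET39 (0.86) and TMEM214 (1.38) lines, where dividing-cell and undifferentiated MB markers were also called higher. It was lower in the TMEM38A line (−0.73, adjusted p = 0.0212) and measured 0.21 in the WFS1 line, not called. These are RNA levels, whereas Asb2 directs filamin protein to degradation, and a link between Asb2 and Flna was not tested. Nrap, a partner of Klhl41, was higher in the TMEM38A (1.21) and WFS1 (1.10) lines. Mybpc1 was higher in the NET39 (1.03) and WFS1 (1.34) lines and lower in the TMEM214 line (−2.50). Of the 12, 4 were called higher and 1 lower in the TMEM38A line (4.27% and 5.91% of all genes), and 2 and 1 in the WFS1 line (4.30% and 4.33%). The NET39 line had 2 and 2 (5.22% and 4.60%) and the TMEM214 line 1 and 4 (5.41% and 4.40%).

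Among 16 regulators of atrophy genes above background Myog (myogenin) was the largest change in myogenesis at 32.6-fold, 6 being higher and 1 lower. Foxo1, a driver of Fbxo32 and Trim63 in atrophy, had a ratio of −0.02 in myogenesis (adjusted p = 0.945). Foxo6 was lower in the NET39 (−0.87), WFS1 (−0.95) and TMEM214 (−1.01) lines. Acvr2b, a myostatin receptor, was lower in the NET39 (−0.94), WFS1 (−0.60) and TMEM214 (−0.72) lines and higher in the TMEM38A line (0.61). Myog was lower in the TMEM38A line (−0.69) and Cebpb lower in the NET39 line (−1.10). Cebpd was higher in the WFS1 (0.99), NET39 (0.64) and TMEM214 (0.68) lines. Of the 16, 1 was called higher and 1 lower in the TMEM38A line (4.27% and 5.91% of all genes). The counts were 1 and 4 in WFS1 (4.30% and 4.33%), 1 and 3 in NET39 (5.22% and 4.60%) and 1 and 2 in TMEM214 (5.41% and 4.40%). Of 15 other FoxO and atrophy targets 5 were higher and 4 lower in myogenesis, led by Gadd45a (9.04-fold) and Txnip (5.11-fold). In the TMEM38A line, where Fbxo32 and Trim63 were both called higher, 3 of these 15 were higher and 2 lower (4.27% and 5.91% of all genes). Among them were Eif4ebp1 (0.97) and Txnip (−1.42). The TMEM214 line, where Fbxo32 but not Trim63 was called higher, had 4 higher and 1 lower (5.41% and 4.40%), among them Mt1 (1.93) and Txnip (−1.05). The NET39 line had 3 and 1 (5.22% and 4.60%), among them Mt1 (1.68) and Txnip (−1.89). The WFS1 line had 4 and 3 (4.30% and 4.33%), with Mt1 called higher and Gadd45a (−1.77) and Txnip called lower. Neither of these lines had Fbxo32 called on its brightest probe, and Txnip was called lower in all 4 lines. A link between these targets and Fbxo32 was not tested.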

How the data were processed

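The members and gene lists were chosen with earlier results of these data known. The authors deposited a scanner table of non-normalized intensity for all 21 arrays and a matrix of log2 values, quantile-normalized by their methods. The versions of their tools are not given in the sources used here. The 2 tables ranked probes identically (rank correlation 1). Bead arrays give no read depth, and 3 arrays per group limit the precision.

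Intensities were corrected with normexp (offset 50) in limma 3.58.1 (R 4.3.3), quantile-normalized and put on the log2 scale. A probe was above background when it exceeded the mode of its array's log2 signals (bandwidth 0.01) plus the 1-sided normal quantile at 0.05 times the spread below the mode. Probes doing so in at least 3 arrays were kept (27840 of 45281, 61.5%), 22708 of them with 1 gene symbol. In the annotation 34885 probes had 1 symbol, 18 several and 10378 none. Symbols were updated through RefSeq, and the brightest kept probe stood for each of 13572 genes. One limma model (lmFit, eBayes) held a mean for every group, and p-values were adjusted by Benjamini-Hochberg across genes, separately for each comparison. The call thresholds were those of the study. The fit was tested on simulated data.

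Same-numbered replicates deviated together in myogenesis (r 0.128 to 0.247), transduction (0.123 to 0.172) and the NET39 comparison (0.164 to 0.247) but not in the others, so a replicate block was an alternative. Named genes were taken from the 7 members and the 5 genes with the highest r to each. Other members and clone-type or predicted gene symbols were left out of that ranking. From each list they were taken from the 4 largest changes in myogenesis and the 2 largest called in each knockdown. Foxo1, Flna in the TMEM38A and WFS1 lines, Foxo6 and Klhl30 in NET39, and Acvr2b and Asb1 in WFS1 were added after their values were seen. So were Cebpd in the NET39 and TMEM214 lines and Txnip in the WFS1 line. Tnnt3, Mb and Ckm ratios were added likewise. Alternatives were the authors' values, an offset of 16, median scaling, the mean of a gene's probes, every kept probe, no filter, a filter of 6 arrays, array weights, only the groups compared, and leaving out each array. Promoter windows are RefSeq sequences of GRCm38.p6.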

Additional observations from a re-analysis of the deposited data

Results flagged for a closer look

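Between knockdown lines, 16 differences in members passed the test of the difference itself, as limma contrasts of 2 lines at an adjusted p below 0.05 and a size above 0.5 over all genes. For Asb2 these were the NET39 line minus the TMEM38A line (−4.01, adjusted p = 1.46e-13), NET39 minus WFS1 (−3.20), TMEM38A minus WFS1 (0.81), TMEM38A minus TMEM214 (3.78) and WFS1 minus TMEM214 (2.96). Klhl41 differed for NET39 minus WFS1 (−0.86), NET39 minus TMEM214 (0.53), TMEM38A minus WFS1 (−0.78), TMEM38A minus TMEM214 (0.60) and WFS1 minus TMEM214 (1.38). Trim54 differed for NET39 minus TMEM38A (−0.83), TMEM38A minus WFS1 (0.76) and TMEM38A minus TMEM214 (0.91). Trim63 differed for NET39 minus TMEM38A (−0.86), TMEM38A minus TMEM214 (0.97) and WFS1 minus TMEM214 (0.57, adjusted p = 0.0203). Asb2 and Klhl41 ordered the lines differently, with Asb2 highest in TMEM38A arrays and Klhl41 highest in WFS1 arrays.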

How the results depend on the processing

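Of 965 combinations of gene, comparison and alternative, 915 kept their direction and side of the threshold, 21 lost a call, 14 gained one and 15 changed sign. The number of members called moved in the NET39 knockdown from 1 to 2 with array weights, and lay between 1 and 2 when single arrays were left out, Klhl41 being called without control array 1 or NET39 array 3. It moved in the TMEM38A knockdown from 3 to 1 with the authors' values, and under median scaling from 1 to 2 in the WFS1 knockdown, 3 to 1 in NET39 against TMEM38A and 1 to 0 in NET39 against TMEM214 (0 to 1 when single arrays were left out). The replicate block changed 1 call, Trim54 in the TMEM214 knockdown (−0.51, adjusted p = 0.0410), and raised that count from 3 to 4.

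Signs changed under median scaling for Fbxo32 in myogenesis (−0.25), transduction (0.089), NET39 against TMEM38A (0.060), NET39 against WFS1 (0.31) and TMEM38A against TMEM214 (−0.43), for Trim63 in the WFS1 knockdown (−0.10), for Asb2 in transduction (0.87, called), for Klhl41 in NET39 against TMEM38A (0.17), and for Trim54 in NET39 against WFS1 (0.40) and WFS1 against TMEM214 (−0.32). With control shRNA MTs in place of untransduced MTs, a contrast that also spans transduction, Fbxo32 measured −0.79 against MBs. With single arrays left out, uncalled values ran from −0.20 to 0.036 for Trim54 in NET39 against WFS1, and in NET39 against TMEM214 from −0.014 to 0.22 for Trim63 and −0.0013 to 0.19 for Trim54. The cause was not tested.

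Under median scaling the midpoint of all genes lay at 0.50 in transduction, −0.14 in the TMEM38A and −0.15 in the WFS1 knockdown, and 0.17, 0.21, −0.17 and −0.21 in the pairs of NET39 or TMEM214 with TMEM38A or WFS1. Of called genes the share higher was then 99.8% of 6573 in transduction (main 52.1% of 1634), 17.7% of 3719 in myogenesis (47.1% of 4313), 7.93% of 1917 in TMEM38A (42.0% of 1382), 9.15% of 2383 in WFS1 (49.9% of 1171), 66.6% of 950 in NET39 (53.2% of 1332) and 67.8% of 989 in TMEM214 (55.1% of 1331). Genes called by NET39 against WFS1 rose from 1689 to 3117, by WFS1 against TMEM214 from 1428 to 2920, and fell by TMEM38A against WFS1 from 1747 to 1089. The authors' values called 486 genes in NET39 against TMEM214 where 733 were called. Probe-wise fits count probes, not genes, and so called more. Fbxo32 and Trim63 are dim probes, whose ratios the offset shrinks, and bounds replace ratios where no MB array was above background. Without the first MB array, chosen after seeing the data, the pathway lists kept their counts in myogenesis to within 1 gene in each direction (proteasome 9 higher and 2 lower, against 16.1% and 18.3% of all genes).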
